A study of Mus musculus with 14 samples.

Results

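The urea cycle and amino acid catabolism genes were taken as a list of 44 genes out of 21887 protein-coding genes. They were described by the acetylation of histone H3 at lysine 9 (H3K9ac) over each gene, measured by chromatin immunoprecipitation and sequencing in regenerating mouse liver. A peak was counted for a gene when it overlapped the gene's RefSeq span (build GRCm38.p6, equal to mm10 in coordinates) extended by 5 kb on each side. The list was divided into 6 branches: the urea cycle (6 genes), glutamate and transamination (6), aromatic amino acids (9), serine and glycine with glyoxylate (9), proline, ornithine, histidine and lysine (7), and branched-chain amino acids with propionate (7).

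There were 12 H3K9ac libraries, 6 titled d22 and 6 titled pbs. Both sets came from the livers of male C57BL6/J mice aged 2 to 3 months, which had all undergone partial hepatectomy (PH) and were harvested 12 h later. The study examined how a delay of the drop in blood sugar after PH affects this mark. The libraries titled d22 carry the treatment label vehicle (1/2 strength PBS), whereas the pbs libraries are labelled as dextrose at 22.5% in vehicle. Titles and treatment labels therefore contradict each other. The libraries are named by title, each difference is d22 over pbs, and none is assigned to either treatment here. Each set of peaks was called against its own pooled input, so that input and group cannot be told apart. Both pooled inputs, the one titled d22 included, carry the dextrose label. The labels do not say whether the 6 libraries of a group are 6 animals, so a p-value reflects only how much these libraries vary, which may be technical.

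The liver clears most of the nitrogen released when amino acids are broken down. Transaminases and glutamate dehydrogenase gather amino groups as glutamate, ammonia and aspartate, and the urea cycle turns the nitrogen into urea. Carbon skeletons are routed to pyruvate, to intermediates of the citric acid cycle or to ketone bodies. Most of these enzymes are abundant in hepatocytes, and H3K9ac is a mark of active promoters and of the beginning of transcribed genes.

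Libraries held 6343891 to 13259411 tags after filtering. The share of these tags that lay in called peaks was 16.4% to 23.8% in d22 and 19.9% to 26.6% in pbs. The part of this share in the differences below was not tested. The header gave a tag length of 48 bp in pbs 1, pbs 4 and pbs 6 and of 49 bp in the other 9 libraries, and d22 4 had 44585 peaks, the most of the 12. All 6 hepatocyte markers (Alb, Apoa1, Ttr, Apob, Serpina1a and Hnf4a) had a peak in every library. Their summed tags were 374 to 521 in d22 and 481 to 579 in pbs, each scaled to 1000000 library tags, and 0 of 6 passed the test between groups. The median log2 fold change of the 6 hepatocyte markers, on the TMM scale used for the genes below, was -0.18. Of the markers of other cell types, 5 of 6 endothelial, 2 of 5 lymphocyte and 1 of 5 cholangiocyte genes had a peak in every library. That held for 0 of 6 Kupffer cell and macrophage, 0 of 6 stellate, 0 of 4 neutrophil and 0 of 4 erythroid genes, and the 4 neutrophil genes had no peak in any library. Summed endothelial tags were 31.1 to 79.0 in d22 and 28.0 to 76.5 in pbs on the same scale, and their median log2 fold change was 0.17 over the 5 genes tested. Of these 5, the 2 lymphocyte markers and the cholangiocyte marker Sox9 (0.22), 0 passed, and the remaining cell types had no marker that could be tested. The part of cell composition in the results below was not tested. In whole tissue, fewer cells of a type and less signal per cell cannot be told apart.

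Promoter sequences were available for 36 of the 44 genes, as RefSeq windows of GRCm38.p6 from 250 bases before to 50 bases after the gene start. There was no entry for Cps1, Asl, Arg1, Gls2, Gpt, Kynu, Sds and Sdsl. The 3 printed here are those of Agxt and Ftcd, the members whose H3K9ac differed between the groups, and of Ass1, a urea cycle gene of contrasting base composition. Capitals mark CpG dinucleotides. Agxt lies at chr1:93134990-93135289, Ftcd at chr10:76575398-76575697 and Ass1 at chr2:31470020-31470319, all on the + strand.

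Agxt: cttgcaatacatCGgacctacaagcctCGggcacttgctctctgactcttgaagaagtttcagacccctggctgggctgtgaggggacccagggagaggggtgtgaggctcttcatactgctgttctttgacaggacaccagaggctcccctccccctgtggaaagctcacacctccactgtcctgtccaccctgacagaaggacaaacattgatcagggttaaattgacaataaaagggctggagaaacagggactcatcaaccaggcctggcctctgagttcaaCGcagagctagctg
Ftcd: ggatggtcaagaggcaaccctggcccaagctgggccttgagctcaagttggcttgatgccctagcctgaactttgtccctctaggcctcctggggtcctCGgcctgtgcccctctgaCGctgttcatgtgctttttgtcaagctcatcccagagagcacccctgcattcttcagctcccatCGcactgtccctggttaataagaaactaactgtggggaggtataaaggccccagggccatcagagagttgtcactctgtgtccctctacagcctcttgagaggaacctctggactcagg
Ass1: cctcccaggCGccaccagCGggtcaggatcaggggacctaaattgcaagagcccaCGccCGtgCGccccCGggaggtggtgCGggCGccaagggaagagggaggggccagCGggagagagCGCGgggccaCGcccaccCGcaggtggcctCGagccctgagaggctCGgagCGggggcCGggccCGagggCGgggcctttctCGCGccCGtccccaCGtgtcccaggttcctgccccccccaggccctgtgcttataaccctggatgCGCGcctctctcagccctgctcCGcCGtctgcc

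Agxt and Ftcd each held 3 CpG in 300 bases, against 27 in Ass1. The median over the 36 member promoters was 10.5, with a range of 0 to 51, against 13 over 17492 promoters of protein-coding genes. By branch the median was 21.5 in glutamate and transamination (4 promoters), 14 in the urea cycle (3), 11 in the branched-chain branch (7), 10 in the serine and glycine branch (7), and 7 in both the aromatic branch (8) and the proline and histidine branch (7). Motifs were searched on both strands. TATAAA, the core of the TATA box, was present in 16.7% of member promoters and in 13.3% of all promoters. It was found in Ftcd, starting 29 bases before the gene start, and in neither Agxt nor Ass1. GGGCGG, a GC box, was present in 41.7% of member promoters and 46.3% of all, TTGCNNAA, a core of C/EBP motifs, in 8.33% of member and 10.1% of all promoters, and CACGTG, an E-box, in 2.78% of member and 7.91% of all promoters. The only member promoter with CACGTG was that of Ass1, where it starts 36 bases before the gene start. These matches describe the letters only.

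H3K9ac was called at nearly the whole list. Of the 44 members, 43 had a peak in all 12 libraries, whereas 11778 of the 21887 protein-coding genes did. The exception was Otc, which encodes ornithine transcarbamylase of the urea cycle and lies on the X chromosome. The members were marked over long stretches. The summed length of called peak per gene had a median of 5424 bp over the 43 members, against 2738 bp over all 11778 genes, and 36 of the 43 were above that median. The median gene span was similar, 20951 bp for the members and 22505 bp for all genes. Members with the longest called stretches included Gpt2 (12796 bp), Haao (12315 bp) and Got1 (12048 bp). The branched-chain branch was the exception, with a median of 2205 bp. The other branches had medians of 10712 bp (glutamate and transamination), 7487 bp (urea cycle), 6537 bp (aromatic), 4714 bp (serine and glycine) and 4569 bp (proline and histidine).

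The extra length lay downstream of the gene start. At the start itself, the 35 tested members with a known start were called in 89.0% of gene and library pairs in d22 and 91.4% in pbs, against 80.2% for all 9534 such genes in both groups. At 3 kb into the gene the share was 43.8% in d22 and 55.2% in pbs for the members, against 10.2% in d22 and 11.3% in pbs for all genes. At 1 kb upstream the members (28.1% in d22 and 35.2% in pbs) were close to all genes (27.4% in d22 and 29.4% in pbs). A peak covered the start in all 12 libraries at 24 of the 35 members (68.6%) and at 55.2% of all such genes. Among the exceptions, Pcca, a subunit of propionyl-CoA carboxylase, had a peak over its annotated start in 0 of 12 libraries, and Hal, histidine ammonia-lyase, in 5.

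**Figure D1:**
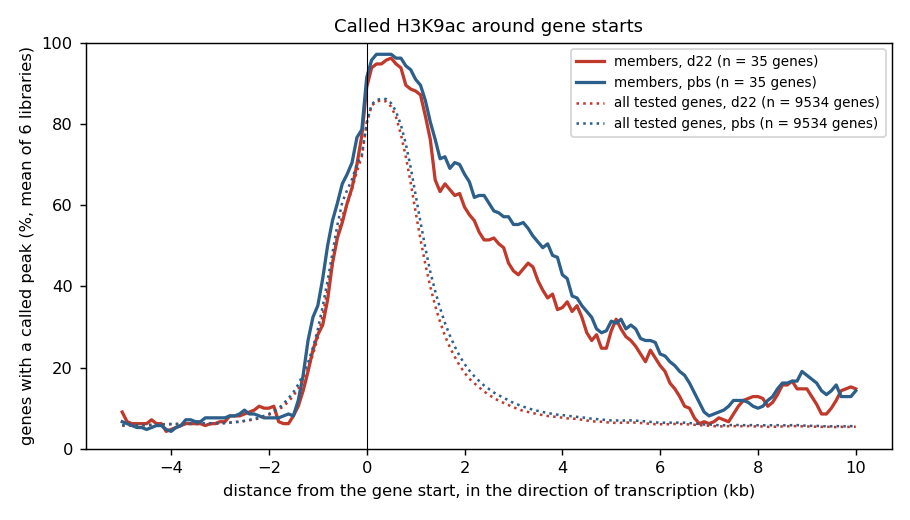
Share of genes with a called H3K9ac peak (vertical axis, percent, mean of 6 libraries) at each distance from the gene start (horizontal axis, kb, positive in the direction of transcription), for d22 (red) and pbs (blue), with solid lines for 35 member genes and dotted lines for all 9534 tested genes with a known start. At 3 kb the member lines are at 43.8% in d22 and 55.2% in pbs, and those of all genes at 10.2% in d22 and 11.3% in pbs.

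Signal per length was not high. The level, in tags per kb of called peak and per 1000000 library tags, had a median of 6.01 over the members and 6.20 over all genes, and 19 of 43 members were above the latter. The highest level of each branch was at Asl in the urea cycle (9.13), Hgd in the aromatic branch (8.61), Amt in the serine and glycine branch (7.69), Got2 in the glutamate branch (7.46), Mccc1 in the branched-chain branch (6.78) and Aldh4a1 in the proline and histidine branch (6.37). The lowest tested level was at Cps1 in the urea cycle (5.55), Afmid in the aromatic branch (3.60), Sdsl in the serine and glycine branch (4.06), Got1 in the glutamate branch (5.50), Ivd in the branched-chain branch (4.52) and Oat in the proline and histidine branch (3.66). Otc, over the 9 libraries with a peak, had a level of 3.33. For 5 members (Glud1, Gpt, Afmid, Amt and Bckdha) more than 50% of the tags lay in peaks that reached within 1 kb of the span of another gene. The share was up to 99.7% for Amt, so that the values of these members are shared with neighbours. Peaks shared only through the 5 kb windows were not counted here.

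Between d22 and pbs, the summed tags of 2 members were lower in d22 at an adjusted p under 0.05, and 0 were higher. These were Agxt, which turns glyoxylate into glycine, and Ftcd, which carries out the last step of histidine breakdown. Over all 11778 genes 0.705% passed (edgeR quasi-likelihood test, Benjamini-Hochberg adjustment), 0.433% lower and 0.272% higher. Called or not, the members were mostly negative: 34 of 43 had a negative log2 fold change, against 49.3% of all genes. The median log2 fold change was -0.15 over the members, 0.00 over all genes and -0.18 over the 6 hepatocyte markers. At an unadjusted p under 0.05 there were 15 members, all with negative values, against 5.88% of all genes lower and 4.57% higher. Without the 5 members that mostly share their peaks, 32 of 38 were negative and the median was -0.16. The 43 members share libraries and some share peaks, so these counts describe the list and are not a test of it.

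**Figure D2:**
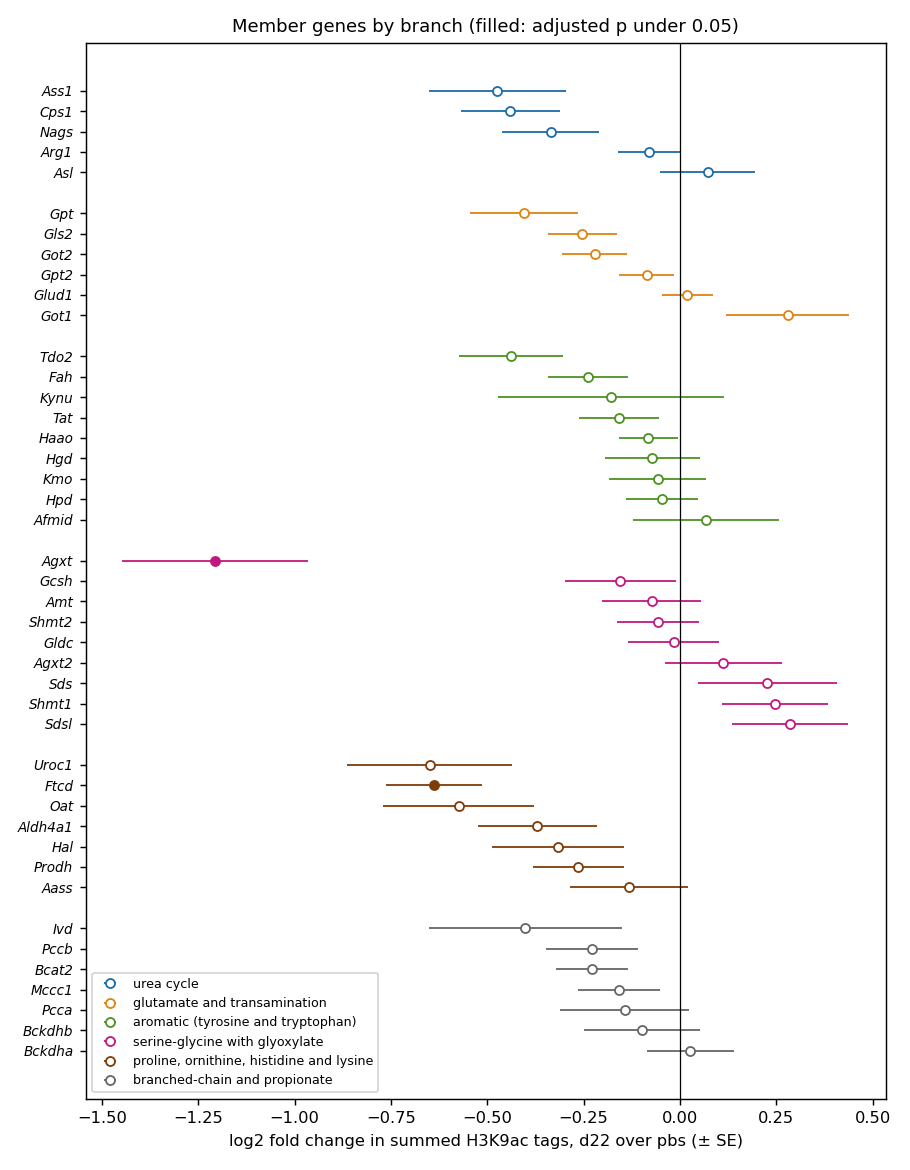
Log2 fold change in summed H3K9ac tags of each member, d22 over pbs (horizontal axis, bars are standard errors, 6 libraries per group), grouped and coloured by branch, with filled points at an adjusted p under 0.05. All 7 genes of the proline, ornithine, histidine and lysine branch lie left of 0, and Agxt at -1.21 lies apart from the other 8 genes of the serine and glycine branch.

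The branches differed in their medians. The log2 fold change had a median of -0.37 in proline, ornithine, histidine and lysine (7 of 7 tested genes negative, 5 at an unadjusted p under 0.05), and -0.34 in the urea cycle (4 of 5 negative, 3 under 0.05). It was -0.16 in the branched-chain branch (6 of 7 negative, 1 under 0.05), -0.15 in glutamate and transamination (4 of 6, 3 under 0.05) and -0.08 in the aromatic branch (8 of 9, 2 under 0.05). It was -0.02 in serine and glycine with glyoxylate (5 of 9, 1 under 0.05), where leaving out 1 library at a time gave -0.08 to 0.03. These differences between branches were not tested.

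In the urea cycle no gene passed. Cps1 encodes carbamoyl phosphate synthetase, the entry of ammonia into the cycle. It had 23.0, 26.3 and 31.3 CPM (lowest, median and highest library; tags per 1000000 library tags, with TMM scaling) in d22, against 30.8, 34.6 and 52.9 CPM in pbs. The groups overlapped, with 5 of 6 d22 libraries below every pbs library. Its log2 fold change was -0.44 ± 0.13 (SE, edgeR adjusted p = 0.166). The peaks of Cps1 spanned 4548 ± 988 bp in the d22 libraries and 7347 ± 1537 bp in the pbs libraries (SD, n = 6 each), while its level was 5.67 ± 0.78 in d22 and 5.44 ± 0.74 in pbs. The called length of Cps1 was thus shorter in d22 on average, without passing the test (limma adjusted p = 0.405), and its signal per kb was no lower.

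Ass1, argininosuccinate synthetase, had 24.7, 41.1 and 62.3 CPM in d22 (lowest, median and highest), against 45.0, 55.8 and 72.0 CPM in pbs. The groups overlapped, and the log2 fold change was -0.47 ± 0.18 (SE, edgeR adjusted p = 0.341). Its H3K9ac over the start, at chr2:31468607-31476510, gave -0.45 ± 0.14 (adjusted p = 0.166 over all regions). A stretch further into the gene, at chr2:31478399-31482601, was called in 2 d22 and 5 pbs libraries (Fisher's exact test, two-sided, p = 0.242). Other stretches of Ass1 called in only some libraries went both ways, with 0 d22 and 2 pbs libraries at chr2:31484929-31486470 and 2 d22 and 1 pbs at chr2:31486967-31487623. Nags, which makes the N-acetylglutamate that activates Cps1, had a value of -0.34 ± 0.13 (adjusted p = 0.332). Arg1, the arginase that releases urea, and Asl, argininosuccinate lyase, were at -0.08 ± 0.08 and 0.07 ± 0.12.

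Otc joins carbamoyl phosphate to ornithine. It had a peak in 3 of 6 d22 libraries, with 28, 36 and 14 tags in d22 2, d22 5 and d22 6, and in all 6 pbs libraries, with 16 to 58 tags. This did not pass (Fisher's exact test, two-sided, p = 0.182, adjusted p = 1 over 2025 genes called in 2 to 10 libraries). Of those genes 0.00% passed, and 11 had an unadjusted p under 0.05. Otc could not have passed, because 3 against 6 is the most uneven split of 9 libraries with a peak. Its peaks lay just inside the gene, in a merged region at chrX:10252223-10253834, and covered the start itself in 4 libraries. A library without a peak has no count there.

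Among the glutamate and transamination genes, Gpt, an alanine aminotransferase, had 23.4, 40.9 and 50.6 CPM in d22 (lowest, median and highest), against 42.5, 51.9 and 59.8 CPM in pbs. The groups overlapped, the log2 fold change was -0.40 ± 0.14 (SE, edgeR adjusted p = 0.284), and 77.6% of its tags lay in peaks within 1 kb of other genes. Gls2, the liver glutaminase, had 44.1, 48.2 and 53.1 CPM in d22 and 49.1, 57.7 and 67.3 CPM in pbs, and a log2 fold change of -0.25 ± 0.09 (adjusted p = 0.293). Got2, the mitochondrial aspartate aminotransferase, was at -0.22 ± 0.08 (adjusted p = 0.344). Each of the 3 had 4 d22 libraries below the lowest pbs library. Got1, the cytosolic counterpart of Got2, lay on the other side, with 55.4, 73.1 and 88.9 CPM in d22 against 42.3, 54.6 and 89.4 CPM in pbs. All d22 values of Got1 lay within the range of pbs, and its log2 fold change of 0.28 ± 0.16 did not pass (adjusted p = 0.571). In tags per kb the value of Got1 was -0.04, against a median of -0.16 over all genes on that scale. Glud1, glutamate dehydrogenase, and Gpt2, the second alanine aminotransferase, were at 0.02 ± 0.07 and -0.09 ± 0.07.

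In the aromatic branch, Tdo2, tryptophan dioxygenase, which opens the kynurenine route, had 17.1, 19.2 and 24.2 CPM in d22, against 20.4, 27.4 and 35.6 CPM in pbs. The groups overlapped, with 4 d22 libraries below the lowest pbs library, and the log2 fold change was -0.44 ± 0.14 (SE, edgeR adjusted p = 0.200). Fah, fumarylacetoacetase, which ends tyrosine breakdown, had 25.7, 31.0 and 36.0 CPM in d22, against 31.3, 35.2 and 45.1 CPM in pbs, and a log2 fold change of -0.24 ± 0.10 (adjusted p = 0.433). The tyrosine enzymes before it gave smaller values: -0.16 ± 0.10 for Tat, the aminotransferase, -0.05 ± 0.09 for Hpd, a dioxygenase, and -0.07 ± 0.12 for Hgd, homogentisate dioxygenase. The kynurenine genes Kmo, Kynu, Haao and Afmid lay between -0.18 and 0.07, and none of the 9 aromatic genes passed. The negative value of Kynu rested on d22 4, without which it was 0.0085.

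The serine and glycine branch held the largest difference of the list. Agxt, alanine-glyoxylate aminotransferase, keeps glyoxylate from becoming oxalate (gene ID 11611, chr1:93135240-93145421). It had 2.42, 5.49 and 10.1 CPM in d22 (lowest, median and highest), against 11.5, 12.4 and 16.7 CPM in pbs. The groups did not overlap. The mean was 5.59 ± 2.66 CPM in d22 and 13.1 ± 2.03 CPM in pbs (SD, n = 6 each), a log2 fold change of -1.21 ± 0.24 (SE, edgeR adjusted p = 0.0306). Agxt and Ftcd were the 2 members whose groups did not overlap, which held for 1.25% of all genes (0.773% lower and 0.475% higher in d22).

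At Agxt the peaks spanned 1171 ± 485 bp in the d22 libraries and 2864 ± 647 bp in the pbs libraries (SD, n = 6 each), and the level was 4.42 ± 1.04 in d22 and 5.03 ± 0.70 in pbs. The log2 fold change of the length was -1.36 (limma adjusted p = 0.191), and no gene passed on called length (0.00%, with 644 genes and 9 members at an unadjusted p under 0.05). In tags per kb the value of Agxt was -0.21 (limma adjusted p = 0.411), that is -0.06 relative to the median of all genes. The merged region at the start, chr1:93134612-93137395, had a peak in all 12 libraries, which covered the start itself in 9. These peaks spanned 1089 ± 333 bp in the d22 libraries and 2193 ± 448 bp in the pbs libraries. A further stretch at chr1:93138087-93139378, inside the gene, was called in 1 d22 and 5 pbs libraries, which did not pass (Fisher's exact test, two-sided, p = 0.0801). The call at Agxt was lost on leaving out d22 1, d22 3, d22 5 or any pbs library (highest edgeR adjusted p = 0.0833), and among the 9 libraries of 49 bp tags the value was -1.04 (edgeR adjusted p = 0.267).

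The other 8 genes of this branch lay between -0.15 and 0.29. Sdsl and Sds, a pair of neighbouring serine dehydratase genes that share peaks, were at 0.29 ± 0.15 and 0.23 ± 0.18. Sdsl had 20.5, 27.2 and 38.2 CPM in d22, against 18.0, 21.2 and 29.8 CPM in pbs (edgeR adjusted p = 0.536). Shmt1, the cytosolic serine hydroxymethyltransferase, had 24.4, 29.3 and 36.9 CPM in d22, against 17.1, 27.3 and 31.3 CPM in pbs, a log2 fold change of 0.25 ± 0.14 (SE, adjusted p = 0.554). The groups overlapped at all 3. In tags per kb Sdsl (-0.01) and Shmt1 (-0.12) had negative values, as did 10759 of the 11778 genes on that scale. Agxt2, a second and mitochondrial glyoxylate aminotransferase, was at 0.11 ± 0.15, Shmt2 at -0.06 ± 0.11, and the glycine cleavage genes Gldc, Amt and Gcsh at -0.02 ± 0.12, -0.07 ± 0.13 and -0.15 ± 0.14.

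**Figure D3:**
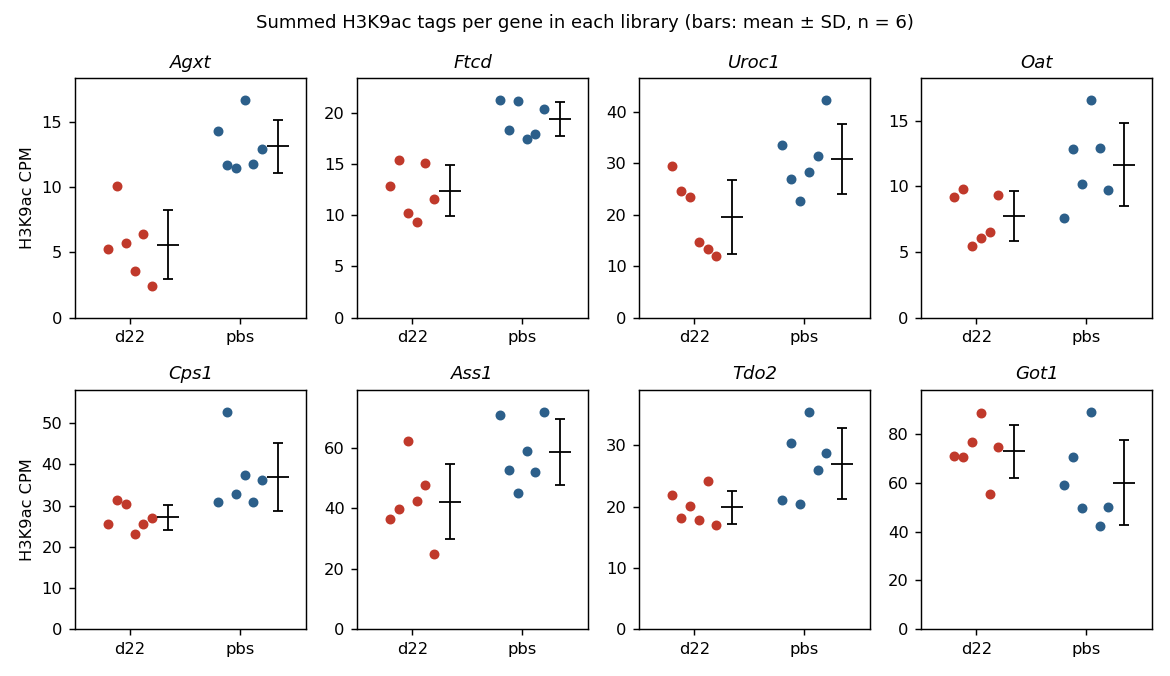
H3K9ac tags summed per gene in each library (vertical axis, CPM, from 0; points are the 6 d22 libraries at left and the 6 pbs libraries at right, with mean and SD) for 8 members. The groups are apart at Agxt (highest d22 library 10.1, lowest pbs library 11.5) and Ftcd (highest d22 library 15.4, lowest pbs library 17.4) and overlap at Uroc1, Oat, Cps1, Ass1, Tdo2 and Got1.

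Histidine breakdown runs from Hal over Uroc1 and Amdhd1 to Ftcd, and the 3 of these that are members were all negative. Ftcd, formimidoyltransferase cyclodeaminase, passes the carbon of histidine to folate (gene ID 14317, chr10:76575648-76590338). It had 9.31, 12.2 and 15.4 CPM in d22, against 17.4, 19.3 and 21.2 CPM in pbs. The groups did not overlap. The mean was 12.4 ± 2.52 CPM in d22 and 19.4 ± 1.70 CPM in pbs (SD, n = 6 each), a log2 fold change of -0.64 ± 0.12 (SE, edgeR adjusted p = 0.0266). The level of Ftcd was 5.07 ± 0.58 in d22 and 7.18 ± 1.01 in pbs, and its peaks spanned 2305 ± 602 bp in the d22 libraries and 2966 ± 627 bp in the pbs libraries. In tags per kb the value was -0.50 (limma adjusted p = 0.132), or -0.34 relative to the median of all genes. The gene's call was kept on leaving out d22 2, d22 4, d22 5 or pbs 4 and lost without any of the other 8 libraries (highest edgeR adjusted p = 0.0720). Among the 9 libraries of 49 bp tags it was -0.62 (edgeR adjusted p = 0.201).

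Uroc1, urocanate hydratase, had 12.0, 19.0 and 29.5 CPM in d22, against 22.6, 29.9 and 42.3 CPM in pbs. The groups overlapped, and the log2 fold change was -0.65 ± 0.21 (SE, edgeR adjusted p = 0.255). Of the merged regions with a peak in every library, that at the start (chr6:90332894-90337285; the start itself was covered in 11 libraries) gave -0.65 ± 0.17 (adjusted p = 0.0895 over all regions), whereas one in the margin past the far end of the gene (chr6:90368891-90372708) gave -0.03 ± 0.13. Hal had 8.78, 14.6 and 18.6 CPM in d22, against 12.9, 18.1 and 19.9 CPM in pbs, and a value of -0.32 ± 0.17 (adjusted p = 0.542). Amdhd1, imidazolonepropionase, was not a member and gave -0.34.

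In the ornithine and proline part, Oat, ornithine aminotransferase, had 5.48, 7.86 and 9.75 CPM in d22, against 7.61, 11.5 and 16.6 CPM in pbs. The groups overlapped, and the log2 fold change was -0.57 ± 0.20 (SE, edgeR adjusted p = 0.271). The merged region at the start of Oat, where the start itself was covered in 10 libraries, was at -0.08 ± 0.17. The stretch further inside the gene, chr7:132571833-132574680, was called in 3 d22 and 6 pbs libraries (Fisher's exact test, two-sided, p = 0.182). No more uneven split was possible for that number of libraries, so this stretch could not have passed. Aldh4a1, which completes proline oxidation, had 18.0, 29.4 and 34.4 CPM in d22, against 33.5, 35.1 and 39.3 CPM in pbs, with a value of -0.37 ± 0.15 (adjusted p = 0.402). Prodh, proline dehydrogenase, and Aass, of lysine breakdown, were at -0.26 ± 0.12 and -0.13 ± 0.15. Summed over the 7 genes of this branch, the tags were 109 to 154 CPM in d22 libraries and 161 to 192 CPM in pbs libraries. The sums of every other branch overlapped between the groups, as did that of all members. In the urea cycle they were 216 to 277 CPM in d22 and 237 to 315 CPM in pbs. These sums are a description of the list, with no test.

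In the branched-chain branch 6 of 7 values were negative and none passed. Bcat2, the mitochondrial branched-chain aminotransferase, had 44.7, 51.0 and 60.5 CPM in d22, against 53.4, 61.7 and 71.7 CPM in pbs, a log2 fold change of -0.23 ± 0.09 (SE, edgeR adjusted p = 0.385). Ivd, isovaleryl-CoA dehydrogenase, had 3.39, 4.48 and 9.97 CPM in d22, against 5.03, 7.11 and 9.88 CPM in pbs, and a value of -0.40 ± 0.25 (adjusted p = 0.607). Pccb, the other subunit of propionyl-CoA carboxylase, was at -0.23 ± 0.12 (adjusted p = 0.530) and Pcca at -0.14 ± 0.17. The groups overlapped at each of the 4. Mccc1, of leucine breakdown, was at -0.16 ± 0.11. The branched-chain keto acid dehydrogenase genes Bckdhb and Bckdha were at -0.10 ± 0.15 and 0.03 ± 0.11.

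**Figure D4:**
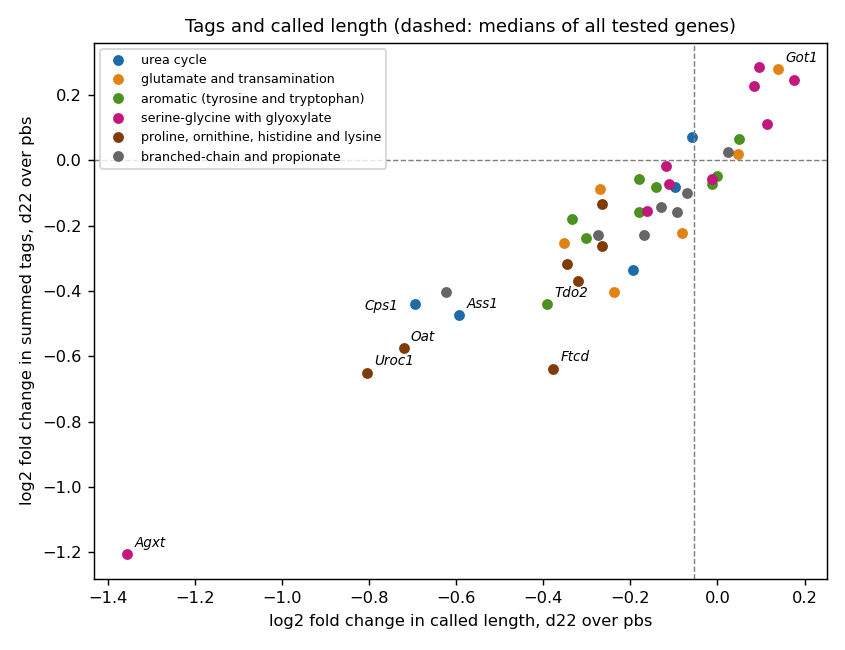
Log2 fold change in summed tags (vertical axis) against that in called length (horizontal axis), both d22 over pbs, for the 43 tested members coloured by branch, with dashed lines at the medians of all tested genes (0.00 for tags and -0.05 for length). The values have the same sign on both axes at 42 of 43 members, and Ftcd (-0.38 in length, -0.64 in tags) and Agxt (-1.36 and -1.21) are the called members.

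Tags and called length mostly had the same sign across the list. The called length had a negative value at 35 of 43 members and the same sign as the tags at 42 of 43, which is partly given because tags are summed over what was called. The median log2 fold change of the length was -0.17 over the members and -0.05 over all genes. Among the 9 libraries of 49 bp tags, the tag sums were negative at 35 of 43 members (median -0.18, all genes 0.00). The length was negative there at 26 of 43 members. The medians of the length there were -0.05 over the members and 0.06 over all genes. Other scalings shifted all genes. With library totals as the only scaling the median of all genes was -0.20 and that of the members -0.35, with 33 of 43 below the median of all genes. In tags per kb the medians were -0.19 over the members and -0.16 over all genes, with 26 of 43 members below the latter. In the authors' fold enrichment they were -0.29 over the members and -0.32 over all genes, with 19 of 43 below. The members' lower values relative to all genes were thus present in tags and length, small in tags per kb, and not seen in fold enrichment. The members called were 2 with DESeq2 (1.97% of all genes), 5 with library totals (1.87%), 0 in tags per kb (0.0849%) and 11 in fold enrichment (26.7%). The 5 were Cps1, Gpt, Tdo2, Agxt and Ftcd.

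By region, the windows of the members held 252 merged regions. In 60 of them all 12 libraries had a peak, and 2 of these passed, both lower in d22. Of all 12375 such regions 1.00% passed, 0.549% lower and 0.453% higher. They were the start regions of Ftcd (chr10:76574665-76578388, -0.59 ± 0.11, edgeR adjusted p = 0.0135) and Agxt (chr1:93134612-93137395, -1.03 ± 0.21, adjusted p = 0.0271). The Ftcd region passed on leaving out any library (highest adjusted p = 0.0391), and that of Agxt on leaving out 8 of the 12 but not d22 1, pbs 4, pbs 5 or pbs 6 (highest 0.0730). Over all of those regions 6008 of 12375 had a negative log2 fold change, with a median of 0.01. Of the 34 merged regions at members that covered a known start, 31 were negative, with a median of -0.17. Of the 8 elsewhere in a gene's span 3 were negative, with a median of 0.02, and of the 8 in the margins 4 were negative, with a median of -0.01. The other 10 lay at genes without a start given, where 8 were negative, with a median of -0.10. No such division by place is given here for the regions of all genes. In regions called in 2 to 10 libraries, 26 of 81 at members were called in more d22 than pbs libraries (32.1%) and 35 in more pbs (43.2%). Over all 16871 such regions 33.0% were called in more d22 and 38.7% in more pbs libraries, and 0 passed Fisher's exact test, with 99 at an unadjusted p under 0.05.

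Further genes of the same pathways, 83 that are not members, showed 1 lower and 0 higher call among the 73 tested. Over all genes 0.433% were called lower and 0.272% higher. Of the 73, 48 had negative values (65.8%), against 49.3% of all genes, and the median was -0.06. The called gene was Slc25a13, the mitochondrial aspartate-glutamate carrier that supplies aspartate to the urea cycle. It had 16.5, 35.4 and 43.7 CPM in d22 (lowest, median and highest), against 54.5, 64.3 and 75.7 CPM in pbs. The groups did not overlap, which held for 4 of the 73 and for 1.25% of all genes. The log2 fold change of Slc25a13 was -0.96 ± 0.17 (SE, edgeR adjusted p = 0.0157). It passed on leaving out any library (highest adjusted p = 0.0466). The log2 fold change of its called length was -0.999, and that of its tags per kb -0.23, against a median of -0.16 over all genes on that scale. Next were Pipox, of pipecolate and sarcosine oxidation (-0.62, adjusted p = 0.0638), Slc7a2, a transporter of cationic amino acids (-0.53, adjusted p = 0.0764), and Hoga1, an enzyme of hydroxyproline breakdown to glyoxylate (-0.42, adjusted p = 0.0799).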

How the data were processed

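H3K9ac was measured in 12 libraries, 6 titled d22 and 6 titled pbs, and the 2 pooled inputs were not analysed. Per the submitters' processing notes, base calls came from CASAVA 1.8, alignment from Novoalign on mm10 and peaks from MACS 1.4.2. Per the file headers, each library was called alone at a p-value cutoff of 1e-05, against 12526421 input tags for d22 and 10409931 for pbs. The deposited peak tables give for each peak a raw count of tags, a score that rises as its p-value falls, an enrichment ratio and an FDR in percent. The counts were the main measure. The deposited fold enrichment and score served only as alternatives, and the percent was not used.

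Tags and lengths of a library's peaks were summed over each gene span extended by 5 kb, taken from a RefSeq table of GRCm38.p6. A gene without a peak in a library has no count, so tests covered genes with a peak in all 12. Tags were tested with edgeR 4.0.16 (R 4.3.3; robust quasi-likelihood, TMM, library size equal to the tags after filtering, group as the only term). Length, tags per kb and fold enrichment were tested on the log2 scale with limma 3.58.1, and occupancy with Fisher's exact test (SciPy 1.17.1). P-values were adjusted over all genes or regions tested, at 0.05. Standard errors are the log2 fold change over the root of the F statistic. Regions are the merged peaks of the 12 lists. Depths of 6343891 to 13259411 tags set the counting error, which the tests include. No 2 libraries agreed within sampling noise (lowest chi-square per degree of freedom 3.32). Tests were tried on simulated data.

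Members and lists were chosen with earlier results of these data known. Named genes were called members, the 3 smallest p in each branch, members without a peak in some library, and the highest and lowest level of each branch. Of the pathway list, these were called genes and the next 3. Other members were added for completeness. Alternatives were DESeq2 1.42.0, library totals, 0 or 1 kb of margin, at least 50% of the peak in the window, a mean of at least 50 tags, a score of at least 100, the title number as a block, and each library left out.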

Additional observations from a re-analysis of the deposited data

Results flagged for a closer look

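In 4 member genes, 1 library lay far from the other 5 of its group, by the gap to its nearest neighbour relative to the group's range. Cps1 had 52.9 CPM in pbs 2, and without that library its value stayed negative. Kynu had 4.74 CPM in d22 4, and without that library its log2 fold change of -0.18 became 0.0085. Haao had 91.4 CPM in d22 5, and Gcsh had 22.5 CPM in pbs 1. Among 86 groups of 6 examined, chance flags about 1 in 20, that is 4.3. The number of peaks was also far apart in d22 4, which had 44585.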

How the results depend on the processing

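Counts of calls depended on the setting. The directions of Agxt and Ftcd held under every alternative in which each could be tested. Against 83 genes and 2 members called by tag sums, DESeq2 called 232 genes, library totals 220 genes and 5 members, fold enrichment 3149 genes and 11 members, and tags per kb 10 genes and 0 members. No margin gave 34 genes and 1 member, and a score of at least 100 gave 1 member and 1 member region, since Agxt then had no peak in every library. The 9 libraries of 49 bp tags, chosen after seeing the data, gave 17 genes, 0 members, 39 regions and 0 member regions. Leaving out 1 library gave 37 to 112 genes, 0 to 2 members, 65 to 149 regions and 1 to 3 member regions. Against 124 regions and 2 member regions, DESeq2 called 272 and 4 and library totals 454 and 13. Called length gave 0 members under every alternative run. Occupancy also gave 0, but Otc, the only member in its main test, could not have passed there. Values were counted for the 18 members with the 3 smallest p of each branch, and not for members named for their level only. Of the 413 values, 375 kept direction and side of the threshold, 24 lost the call and 8 gained one with the same direction. The other 6 reversed: Cps1 (0.059), Sdsl (-0.0059) and Shmt1 (-0.12) in tags per kb, and Sdsl (-0.18), Shmt1 (-0.46) and Pccb (0.17) in fold enrichment. Outside this count, Asl (-0.067) and Got1 (-0.039) also turned negative in tags per kb. The 24 lost calls were at Agxt and Ftcd. Outside tags per kb (-0.21 and -0.50) their values there were -1.28 to -1.04 for Agxt and -0.66 to -0.58 for Ftcd, close to the values with all libraries. The cause was not tested. On leaving out 1 library, 6 of the 43 members changed sign: Kynu, Hgd, Kmo, Afmid, Gldc and Bckdha.

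Whether equal title numbers pair the libraries is not known. Same-numbered deviations correlated at -0.05 to 0.18, and 2 of 6 numbers had their best match in their own number. Such correlations cannot exclude a paired design. With the number as a replicate block, 61 genes, 0 members, 127 regions and 2 member regions passed (Agxt edgeR adjusted p = 0.0659 and Ftcd 0.0548 by gene). A gene without a peak in a library gives no count, so lower levels there were not measured.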
